A study of Mus musculus with 8 samples.

Results

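Open chromatin at gene starts was profiled by ATAC-seq in microglia, the macrophages that live in brain tissue. The assay lets a transposase cut and tag DNA where it is not packed away, so that reads pile up at accessible sites. The regions described here are the 13052 peaks, 12.4% of the 104981 in the table, that were annotated as promoter of a protein-coding gene and that appeared in the authors' peak lists of both treatment groups. They belonged to 10671 genes, of which 8633 had 1 such peak, 1760 had 2 and 278 had 3 or more. The groups were 4 mice at postnatal day 30 injected into the cerebral ventricle of one side with IL-33, and 4 mice of the same age injected with vehicle. Cortical microglia were collected from all 8 mice 4 hours later on a Percoll gradient and by FACS, and each group held 2 female and 2 male mice. The labels name no strain or genotype. The series title places the comparison in a study of microglial pattern recognition and IL-33.

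IL-33 is a cytokine of the interleukin-1 family. Its receptor, ST2 (gene Il1rl1) with the accessory chain encoded by Il1rap, signals through MyD88 and IRAK kinases to the transcription factors NF-kB and AP-1. The promoters of most mammalian genes lie in CpG islands, stretches that keep a high density of the dinucleotide CpG and are open in nearly all cell types. Promoters with few CpG dinucleotides are more often those of genes restricted to a cell type or induced by a stimulus, and in macrophages many are bound by the lineage factor PU.1.

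Values are tag numbers per peak, brought to a common library size of 10000000, so that a level says how accessible a promoter was and not how much the gene was transcribed. A peak was called raised or lowered where limma gave an adjusted p under 0.05 over the 94480 peaks tested. Being on both lists requires a detectable peak in each group and so leaves out promoters open in 1 group alone. The lists came from the same libraries, and the share of these promoters that changed is therefore given as a description. The 1573 protein-coding promoters on 1 list were much weaker. The 1048 listed under IL-33 alone had medians of 6.62 tags in IL-33 and 4.25 in vehicle libraries, and the 525 listed under vehicle alone had 5.05 tags in IL-33 and 6.82 in vehicle libraries. The promoter annotation of HOMER, the authors' annotation tool, runs from 1000 bp before to 100 bp after a start. Members 901 to 1000 bp upstream had medians of 16.6 tags in IL-33 and 16.2 in vehicle libraries, and shared peaks 1001 to 1100 bp upstream, outside the class, had 15.8 and 16.7. At the other edge, members 51 to 100 bp downstream had medians of 49.7 tags in IL-33 and 55.4 in vehicle libraries, against 36.3 and 43.4 tags for shared peaks 101 to 150 bp downstream. A gene is the one whose start lies nearest. The distance is to that start, and 507 members lay more than 100 bp downstream of it.

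The sequences below stand for the promoters that changed most. They are RefSeq windows (GRCm38.p6) from 250 bases before to 50 bases after a start, all on the plus strand, of the first 3 raised and the first 3 lowered promoters, in order of change, whose window held a searched motif. Ehd1, the largest rise, had no overlapping window, and the windows of Ccl22 (raised) and of Slco2b1 at its largest fall held no searched motif. Capitals mark the motif matches. Tank (chr2:61578336-61578635) encodes a TRAF-binding regulator of NF-kB signalling, and its capitals are the letters of a TATA box on the opposite strand and far from the start, those of a CCAAT box, and a match to the NF-kB consensus near the start. Cxcl2 (chr5:90903649-90903948) encodes a neutrophil chemokine, and its capitals are a GC box, overlapping NF-kB matches and a PU.1-type ETS match. Nadk (chr4:155562131-155562430) encodes NAD kinase, with a CCAAT box and a PU.1-type ETS match.
Tank: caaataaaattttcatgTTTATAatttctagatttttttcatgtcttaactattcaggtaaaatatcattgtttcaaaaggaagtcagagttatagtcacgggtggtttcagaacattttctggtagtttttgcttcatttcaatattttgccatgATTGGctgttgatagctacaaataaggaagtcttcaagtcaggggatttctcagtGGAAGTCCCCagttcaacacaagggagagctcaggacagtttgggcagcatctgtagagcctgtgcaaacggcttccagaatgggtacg
Cxcl2: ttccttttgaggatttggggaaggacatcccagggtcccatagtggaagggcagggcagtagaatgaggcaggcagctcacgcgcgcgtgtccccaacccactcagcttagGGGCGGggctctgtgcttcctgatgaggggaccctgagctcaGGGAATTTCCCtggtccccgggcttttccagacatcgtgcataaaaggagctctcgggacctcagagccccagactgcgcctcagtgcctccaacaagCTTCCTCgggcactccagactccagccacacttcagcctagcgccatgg
Nadk: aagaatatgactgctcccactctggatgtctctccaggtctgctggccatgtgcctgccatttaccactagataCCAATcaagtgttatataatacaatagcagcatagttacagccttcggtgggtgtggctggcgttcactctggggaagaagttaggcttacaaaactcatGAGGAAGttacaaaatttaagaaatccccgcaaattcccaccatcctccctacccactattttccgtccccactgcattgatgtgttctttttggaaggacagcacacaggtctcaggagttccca
The 3 lowered promoters held the letters of basal promoter motifs and none of the NF-kB, AP-1, C/EBP or PU.1-type matches. Smim10l2a (chrX:56374267-56374566) encodes a small membrane protein and has GC boxes, the last of them after the annotated start. Crybb1 (chr5:112255570-112255869), a beta-crystallin gene that marks microglia, has a TATA box, and the letters of a CCAAT box after the annotated start. Hpgd (chr8:56294302-56294601) encodes the enzyme that inactivates prostaglandins and has a GC box, and the letters of a TATA box just after the annotated start.
Smim10l2a: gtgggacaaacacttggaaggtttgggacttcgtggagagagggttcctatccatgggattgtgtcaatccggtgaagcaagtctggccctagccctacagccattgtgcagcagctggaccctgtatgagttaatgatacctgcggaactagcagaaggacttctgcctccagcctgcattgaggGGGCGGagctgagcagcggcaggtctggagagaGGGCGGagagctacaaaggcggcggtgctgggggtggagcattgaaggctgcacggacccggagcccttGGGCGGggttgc
Crybb1: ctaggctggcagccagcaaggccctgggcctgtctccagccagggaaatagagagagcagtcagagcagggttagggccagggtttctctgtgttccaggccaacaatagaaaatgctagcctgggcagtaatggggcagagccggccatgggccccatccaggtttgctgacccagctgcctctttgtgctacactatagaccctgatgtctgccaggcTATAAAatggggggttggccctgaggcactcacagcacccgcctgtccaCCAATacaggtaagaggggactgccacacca
Hpgd: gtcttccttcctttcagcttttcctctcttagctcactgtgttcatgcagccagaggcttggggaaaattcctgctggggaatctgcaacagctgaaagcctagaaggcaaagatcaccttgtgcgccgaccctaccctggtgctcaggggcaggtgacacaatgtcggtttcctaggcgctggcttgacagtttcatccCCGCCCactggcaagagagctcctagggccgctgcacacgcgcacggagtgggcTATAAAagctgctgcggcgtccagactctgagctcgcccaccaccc

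Shared protein-coding promoters were among the most open sites of microglia. Their median level was 52.6 tags in IL-33 and 60.2 in vehicle libraries, against 11.6 and 11.3 tags over all peaks. Most lay on the start itself, 64.6% within 100 bp of it, and their median length of 271 bp was close to the 274 bp of all peaks. The authors' own peak score reached its ceiling of 1000 in 84.6% of the members and in 45.6% of the other shared peaks.

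The share of each library's tags that fell in these promoters differed more between libraries than between groups. It was 9.89%, 4.75%, 7.46% and 9.75% in IL-33 libraries 1 to 4 and 9.20%, 9.86%, 7.42% and 9.43% in vehicle libraries 1 to 4, and Wilson 95% intervals were no wider than 0.01 percentage points either side. IL-33 library 2 was the lowest and vehicle library 3 the next, and the groups overlapped. The same 2 libraries had the fewest tags in peaks of any kind, 14.2% in IL-33 library 2 and 20.8% in vehicle library 3, where the other libraries had 22.0% to 31.3%. Within the tags in peaks, the promoters took 33.1%, 33.5%, 33.9% and 31.2% in IL-33 libraries and 34.8%, 35.3%, 35.6% and 35.6% in vehicle libraries. All 4 IL-33 libraries lay below all 4 vehicle libraries in this share, which averaged 32.9% ± 1.21 with IL-33 and 35.3% ± 0.416 with vehicle (SD, n = 4 each).

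**Figure D1:**
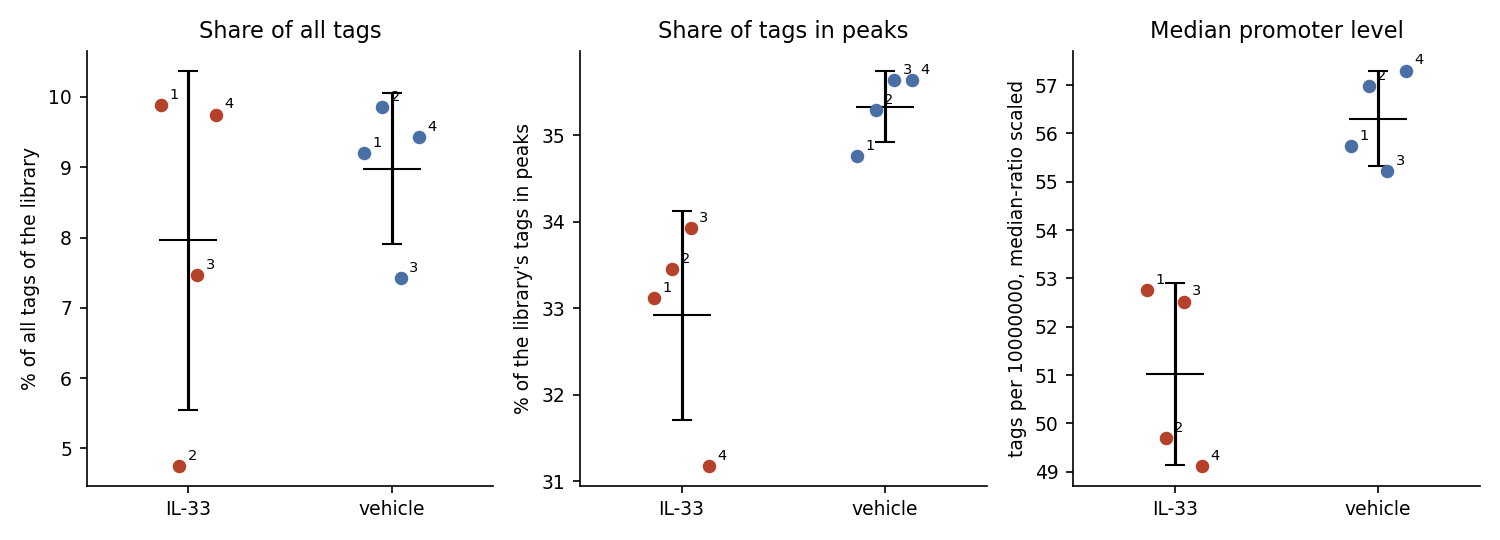
Shared protein-coding promoters in each library (points, numbered), with mean and SD (n = 4 each). Panels give the percent of all tags, the percent of tags in peaks and the median promoter level after median-ratio scaling, on axes that do not start at 0. The IL-33 and vehicle libraries overlap in the left panel and are apart in the middle and right panels.

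Median levels of the promoters behaved likewise. As deposited they were 65.8, 30.3, 48.5 and 64.8 tags in IL-33 libraries 1 to 4 and 61.3, 66.3, 48.5 and 63.3 tags in vehicle libraries 1 to 4. Scaling each library by the median ratio over all peaks, which removes the difference in tags in peaks, brought them to between 49.1 and 52.8 tags with IL-33 and between 55.2 and 57.3 tags with vehicle. The median log2 change, IL-33 minus vehicle, was -0.22 as deposited, against -0.14 over all peaks, and -0.12 with median-ratio scaling, against -0.05. Relative to all peaks the promoters were at -0.08 as deposited and at -0.07 with median-ratio scaling. Without IL-33 library 2 the median as deposited was 0.0, and with median-ratio scaling it stayed between -0.14 and -0.09 whichever library was left out.

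Of the 13049 promoters tested, 148 were raised and 148 lowered by IL-33, 1.13% each. Over all peaks 8.53% were raised and 4.99% lowered. The 3 members not tested fell in the lowest 10% of means. Raised promoters came from 142 genes and lowered promoters from 141. A change of at least 2-fold on the log2 scale was reached by 129 of the raised and 102 of the lowered. The 4 IL-33 libraries all lay above the 4 vehicle libraries at 181 promoters (1.39%, against 8.06% of all peaks) and all below them at 295 (2.26%, against 5.89%). Groups did not overlap at 128 of the 148 raised and 114 of the 148 lowered promoters. Over all peaks tested they did not overlap at 6359 of the 8058 raised and 3385 of the 4714 lowered.

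Counts depended on scaling and on single libraries. With median-ratio scaling 484 promoters were raised and 806 lowered (3.71% and 6.18%, against 15.3% and 10.8% of all peaks), and they included all 148 raised and 146 of the 148 lowered as deposited. Raised promoters were thus 50% of the calls as deposited and 37.5% with that scaling. Leaving out IL-33 library 2 gave 378 raised promoters in place of 148. For lowered promoters the count was 301 when IL-33 library 4 was dropped and 62 when IL-33 library 3 was. Dropping vehicle library 1, 2 or 4 left 59, 59 or 64. In all 8 fits that each left out 1 library, 88 raised and 47 lowered promoters passed. With a standard error of 0.34 at every promoter as deposited, a change under about 0.92 could not pass.

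Raised promoters were mostly weak in vehicle libraries, with a median of 11.6 tags, and lowered promoters less so, with a median of 39.9. Members were split into 5 bins of equal size by their mean in vehicle libraries, with vehicle medians of 11.8, 33.2, 60.2, 89.9 and 137.8 tags from bin 1, the weakest, to bin 5. Raised promoters numbered 110, 33, 3, 2 and 0 in bins 1 to 5 and lowered promoters 26, 68, 31, 17 and 6. The bins use the vehicle libraries of the comparison itself, so part of this order follows from the split. Split by the mean of all 8 libraries, raised promoters numbered 66, 55, 19, 6 and 2 and lowered promoters 42, 64, 31, 10 and 1. Bins 1 and 2 of this split thus held most rises and most falls alike. With median-ratio scaling the vehicle bins held 313, 120, 36, 15 and 0 raised and 104, 261, 225, 147 and 69 lowered promoters.

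The spread of change narrowed with strength. The SD of the log2 change over promoters was 0.47 in bin 1 and 0.36, 0.23, 0.17 and 0.11 in bins 2 to 5. In bin 5, 5% of promoters had a change below -0.41 and 5% one above -0.10. The median change was -0.05, -0.23, -0.25, -0.24 and -0.23 in bins 1 to 5 as deposited, and 0.04, -0.13, -0.15, -0.14 and -0.13 with median-ratio scaling. Medians of bins 2 to 5 were within 0.02 of each other on either scale.

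**Figure D2:**
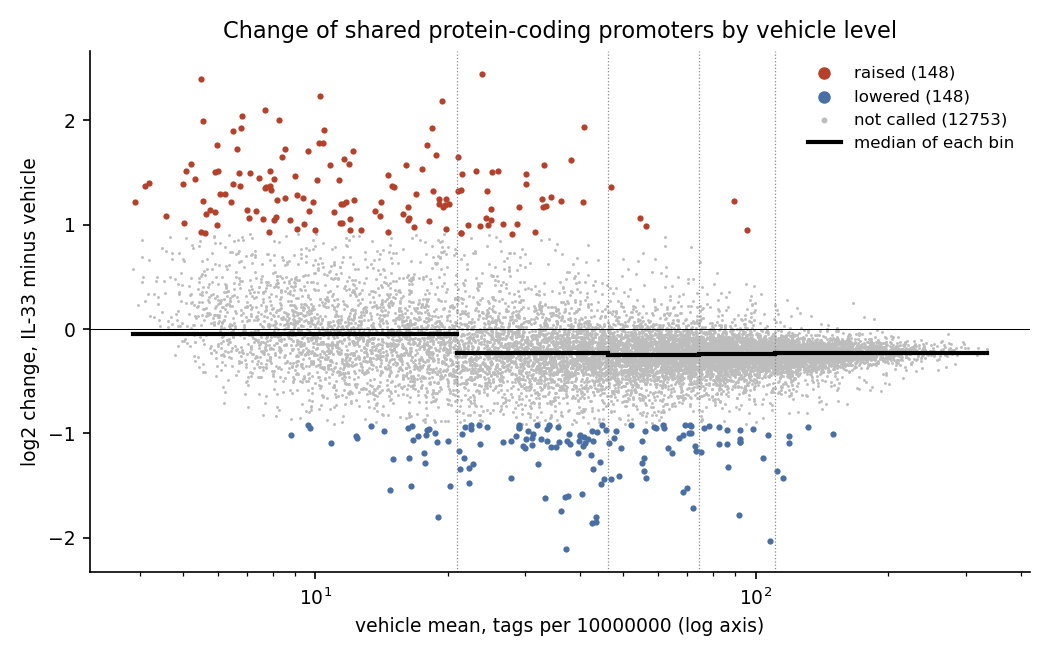
Each point is a shared protein-coding promoter, with its vehicle mean (log axis) and its log2 change, IL-33 minus vehicle. Dotted lines divide the 5 bins of vehicle level and black bars are their medians. Raised promoters lie mostly in bins 1 and 2, with 110 and 33 of 148, and the cloud narrows towards strong promoters.

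Shared peaks outside promoters changed more often at the same level. In the vehicle range of bin 1, 4.22% of members were raised, against 6.48% of the 40568 shared peaks outside promoters. In the ranges of bins 2 to 5, 2.61%, 1.19%, 0.651% and 0.230% of members were lowered, against 9.69%, 9.36%, 8.28% and 5.82% of those peaks. With median-ratio scaling the last pair became 2.64% of members and 22.6% of the other peaks. As deposited, 0.0766% of members and 0.0915% of the other shared peaks were raised in bin 4 and 0 of either in bin 5. With median-ratio scaling the raised shares were 0.575% of members and 2.84% of the other peaks in bin 4, and 0% and 0.931% in bin 5. These shares are descriptions. Peaks of either kind are not independent, and both sets were chosen on the same lists.

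Position within the promoter window also went with the calls. At 501 to 1000 bp upstream of the start, 42 of 1357 promoters were raised (3.10%) and 27 lowered (1.99%). At 101 to 500 bp upstream there were 36 of each among 2756 (1.31%). Within 100 bp of the start 61 of 8429 were raised (0.724%) and 84 lowered (0.997%). Of the 507 members over 100 bp downstream of the nearest start, 9 were raised and 1 lowered. The far upstream members were also weaker than those at the start, with medians of 18.3 tags in IL-33 and 18.5 in vehicle libraries, against 57.4 and 65.4 tags within 100 bp, and the part of level in this order was not tested.

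None of the 5 strongest promoters was called. Nfya, which encodes a subunit of the CCAAT-binding factor NF-Y, had 364, 199.5, 288 and 345 tags in IL-33 libraries 1 to 4 and 328, 367, 285 and 361 tags in vehicle libraries (log2 change -0.19, limma, adjusted p = 0.792). The other 4 were Mex3c, an RNA-binding ubiquitin ligase gene, Fem1c, a substrate receptor of a ubiquitin ligase, Suco, and the chaperone gene Hspa8. Their log2 changes lay between -0.25 and -0.18, none was called on either scaling, and IL-33 library 2 was the lowest library at each. The reference promoters Gapdh and Actb changed by -0.01 and -0.08.

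The 12 largest rises and the 12 largest falls were taken from called promoters whose groups did not overlap, so the lack of overlap was set by the choice. The largest rise was at Ehd1, an ATPase of endocytic recycling (chromosome 19, 6276552 to 6276976, 132 bp upstream of the start). It had 158, 101, 140.1 and 143 tags in IL-33 libraries 1 to 4 and 24.2, 22.5, 20.8 and 28.04 tags in vehicle libraries 1 to 4. Every IL-33 library was at least 3 times as high as any vehicle library (log2 change 2.44, SE 0.34, limma, adjusted p = 5.84e-11). Ccl22, the gene of a chemokine that attracts T cells through CCR4, had 41.3, 20.9, 22.7 and 58.4 tags in IL-33 and 3.33, 6.74, 4.56 and 7.39 tags in vehicle libraries (chromosome 8, 94745436 to 94745721). Its groups did not overlap, and its mean was 6.51 times as high with IL-33 (log2 change 2.40, limma, adjusted p = 1.37e-10). Il4i1 encodes a secreted L-amino acid oxidase of activated myeloid cells (chromosome 7, 44835340 to 44835654). It had 49.97, 44.3, 43.4 and 73.9 tags in IL-33 and 12.7, 10.97, 9.80 and 7.53 tags in vehicle libraries (log2 change 2.23, limma, adjusted p = 3.05e-09), again without overlap. Tank, whose sequence is printed above, had 42.8, 17.8, 26.9 and 47.7 tags in IL-33 and 7.42, 5.94, 6.61 and 7.25 tags in vehicle libraries (log2 change 2.04, limma, adjusted p = 8.49e-08). Cxcl2 had 58.3, 23.6, 26.2 and 48.3 tags in IL-33 and 7.04, 8.32, 9.35 and 8.37 tags in vehicle libraries (log2 change 2.0, limma, adjusted p = 1.67e-07). At Tank and at Cxcl2 the lowest IL-33 library, number 2 in each, still stood above every vehicle library.

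The remaining 7 of the 12 largest rises had log2 changes of 1.91 to 2.18. They were the copper transporter gene Slc31a2, which averaged 99.4 ± 42.2 tags with IL-33 and 19.4 ± 2.08 with vehicle (SD, n = 4 each), Arpin, an inhibitor of the Arp2/3 actin nucleator, Itgal, the alpha chain of the integrin LFA-1, Gramd1a, a cholesterol transfer protein, Nadk, the zinc importer gene Slc39a4, and BC049762. All 12 were in bin 1 or 2, passed in all 8 leave-one-out fits and passed with median-ratio scaling. Stronger promoters that were raised most within their bin were Tnfaip2, a TNF-induced gene, with 125.2 ± 31.5 tags in IL-33 and 46.9 ± 4.96 in vehicle libraries (bin 3, log2 change 1.36), and Birc3, with 219 ± 66.5 and 89.4 ± 8.72 tags (bin 4, 1.23).

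**Figure D3:**
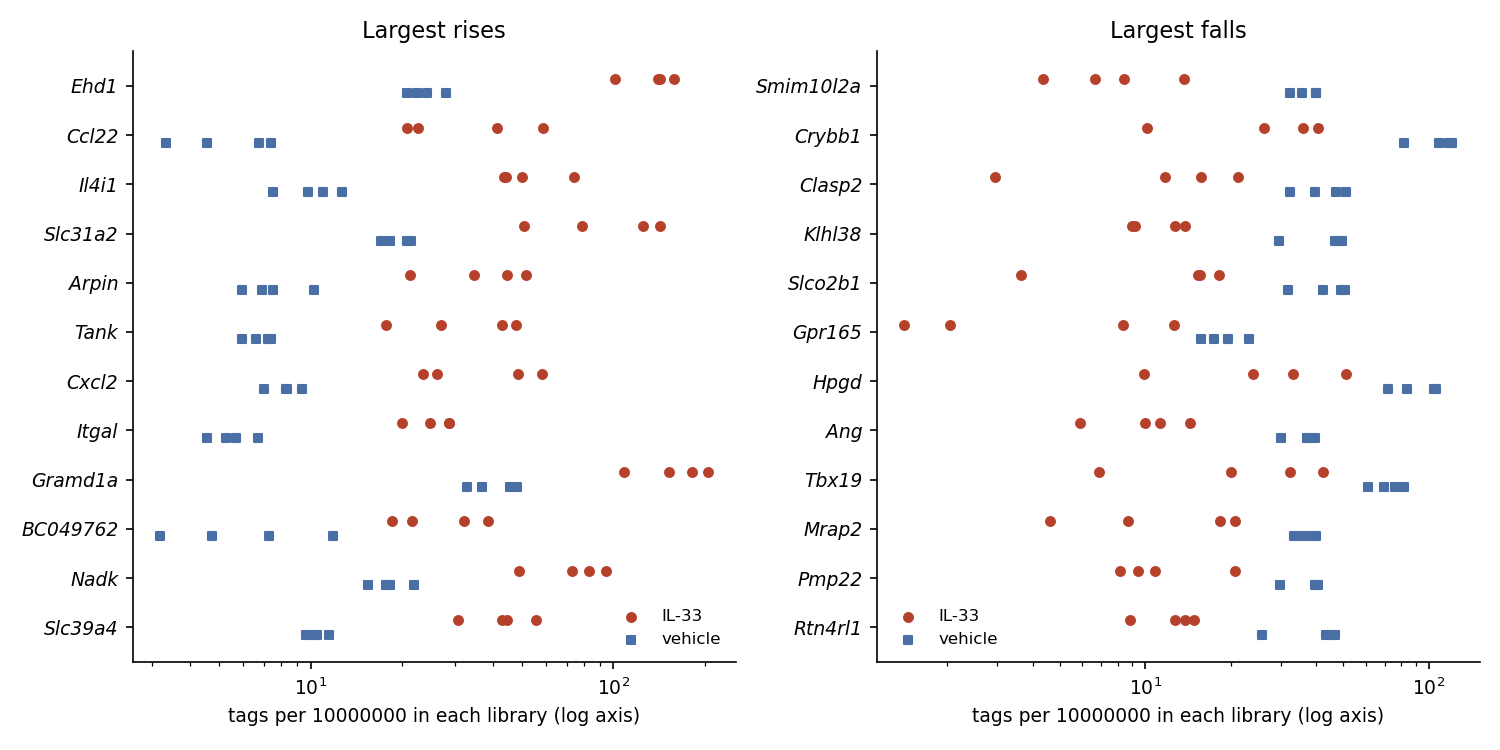
Tags per 10000000 (log axis) in each IL-33 library (circles) and each vehicle library (squares) at the promoters with the 12 largest rises and the 12 largest falls among those whose groups did not overlap. The gap between groups is part of how these promoters were chosen. IL-33 libraries scatter more than vehicle libraries at most of them.

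The largest fall was at Smim10l2a on the X chromosome (56374353 to 56374638), which had 8.41, 4.36, 6.62 and 13.7 tags in IL-33 and 35.6, 40.0, 32.5 and 39.9 tags in vehicle libraries. The groups stood far apart (log2 change -2.11, SE 0.34, limma, adjusted p = 2.89e-08). Crybb1 was among the stronger promoters, in bin 4, and fell to 36.0, 10.1, 26.2 and 40.7 tags in IL-33 libraries, against 118, 121, 82.1 and 109 tags in vehicle libraries (chromosome 5, 112255539 to 112255795). Every IL-33 library stood below every vehicle library, as the choice of these falls required (-2.03, limma, adjusted p = 1.02e-07). Hpgd, in the same bin, had 33.1, 9.90, 24.1 and 50.8 tags in IL-33 and 104, 106, 71.7 and 83.8 tags in vehicle libraries (-1.78, limma, adjusted p = 4.64e-06). Siglech, a sialic acid-binding receptor gene of microglia, was the largest fall of bin 5. It had 59.9, 22.2, 34.8 and 65.7 tags in IL-33 and 132, 125, 94.4 and 109 tags in vehicle libraries (-1.42, limma, adjusted p = 0.000489).

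The other 9 of the 12 largest falls had log2 changes of -1.86 to -1.58. They were the microtubule-binding protein gene Clasp2, Klhl38, Slco2b1, the orphan receptor gene Gpr165, the ribonuclease gene Ang (angiogenin), the T-box factor gene Tbx19, Mrap2, which encodes an accessory protein of melanocortin receptors, the myelin protein gene Pmp22 and Rtn4rl1, a relative of the Nogo receptor. IL-33 library 2 was the lowest library at Clasp2, with 2.95 tags, and at Slco2b1, with 3.65 tags, and each of the 12 falls also passed with median-ratio scaling and in all 8 leave-one-out fits. Vehicle library 3 was the lowest vehicle library at 11 of them.

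Genes of 17 lists were then read through the promoter nearest to each start. The lists were chosen with earlier results of these data known. Their counts stand beside 1.13% of members raised and 1.13% lowered as deposited, and 8.53% and 4.99% of all peaks. With median-ratio scaling these shares were 3.71% and 6.18% of members and 15.3% and 10.8% of all peaks. Counts of 1 or 2 in a list are descriptions. Cytokine and chemokine genes were the one list with a median above 0 as deposited, and with median-ratio scaling immediate-early genes were also just above it, at 0.02. Of 33 genes 19 had a shared promoter, and 8 of these were raised and 0 lowered in limma (11 raised and 1 lowered with median-ratio scaling). At an unadjusted p under 0.05 limma had 9 up and 0 down, and edgeR called 8 raised and 0 lowered with total tags and 11 and 1 with TMM. The median log2 change was 0.62, against -0.22 over all members. Beside Ccl22 and Cxcl2 these were Ebi3, a subunit of IL-27 and IL-35 (123.3 ± 38.5 tags in IL-33 and 38.2 ± 6.90 in vehicle libraries, log2 change 1.62), Il15 (52.5 ± 19.97 and 16.1 ± 3.28 tags, 1.58), the chemokine genes Ccl4 (82.4 ± 22.5 and 30.1 ± 5.70 tags, 1.39) and Ccl3 (94.4 ± 23.9 and 40.5 ± 12.9 tags, 1.22), Il23a (14.2 ± 2.06 and 5.54 ± 1.64 tags, 1.23) and Tnf (51.6 ± 6.67 and 24.4 ± 5.46 tags, 1.07). Neither Il1b nor Il6 nor Il10 had a promoter on both lists. Tnf did not pass without vehicle library 3 or IL-33 library 3, Ccl3 without vehicle library 3, and Il23a without vehicle library 4.

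Of 26 genes of the NF-kB pathway itself 22 had a promoter on both lists, 2 had one on 1 list alone and 2 had none. The 22 shared promoters, all tested, had medians of 92.4 tags in IL-33 and 76.4 in vehicle libraries, and their median log2 change was -0.14. As deposited 2 were raised, Bcl3, which encodes an atypical IkB protein, and Birc3, a ubiquitin ligase gene of the TNF receptor complex, and 0 lowered in limma. Of all peaks 8.53% were raised, and of the members 1.13%. Bcl3 had 98.5, 47.2, 71.1 and 98.3 tags in IL-33 and 28.01, 29.1, 18.7 and 28.2 tags in vehicle libraries (1.52, limma, adjusted p = 0.000162), and the groups did not overlap. Nfkbia, which encodes the inhibitor IkB-alpha, had 119, 65.1, 96.6 and 122.5 tags in IL-33 and 84.7, 79.9, 69.1 and 75.8 tags in vehicle libraries and was not called (0.34, limma, adjusted p = 0.629). With median-ratio scaling Nfkbia passed (0.44, limma, adjusted p = 0.0227), as did Nfkb1, Relb and Traf3, and 0 of the list were lowered. At an unadjusted p under 0.05 limma had 2 up and 0 down, edgeR called 8 raised and 1 lowered with TMM, and 2 raised and 0 lowered with total tags. The subunit genes Rela (-0.19), Rel (0.25) and Nfkb2 (0.01) passed on neither scaling.

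Among genes upstream of NF-kB, Il1rl1 had no promoter on both lists. Il1rap had 139, 55.3, 85.7 and 139.6 tags in IL-33 and 127, 122, 99.2 and 115 tags in vehicle libraries and was not called (-0.23, limma, adjusted p = 0.750). Of the 18 tested promoters of the receptor and MyD88 pathway, 1 was raised (2 with median-ratio scaling, and 3 raised and 1 lowered in edgeR with TMM), that of Il18rap, the accessory chain of the IL-18 receptor (18.3 ± 8.37 tags in IL-33 and 7.34 ± 1.65 in vehicle libraries, 1.13). It did not pass without vehicle library 4 or IL-33 library 4. The adaptor gene Myd88 (0.09) and the kinase genes Irak2 (-0.12) and Irak4 (-0.14) were not called on either scaling. Irak3, a kinase-dead inhibitor of the pathway, passed with median-ratio scaling alone (0.82).

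Inhibitors of signalling and of mRNA stability were represented by 24 promoters, of which 1 was raised and 0 lowered as deposited, 3 raised and 3 lowered (Dusp4, Dusp6 and Zfp36l2) with median-ratio scaling, and 5 raised and 5 lowered in edgeR with TMM. At an unadjusted p under 0.05 limma had 3 up and 1 down. The raised one was Il1rn, the gene of the interleukin-1 receptor antagonist. It had 34.2, 23.8, 35.3 and 59.2 tags in IL-33 and 9.59, 11.8, 5.59 and 13.8 tags in vehicle libraries (1.78, limma, adjusted p = 5.11e-06), without overlap. The start-proximal peak of Dusp2, a MAP kinase phosphatase gene, had 125.6 ± 32.3 tags in IL-33 and 71.2 ± 11.01 in vehicle libraries and was not called (0.78), while a second Dusp2 peak 725 bp upstream was raised (64.1 ± 14.2 and 17.96 ± 3.43 tags, 1.76, named after its values were seen). Likewise the start-proximal peak of Zfp36l2, a gene of an mRNA decay factor, was not called as deposited (99.7 ± 27.7 tags in IL-33 and 161.5 ± 22.99 in vehicle libraries, -0.72), while a peak 662 bp upstream was lowered (40.4 ± 12.1 and 86.2 ± 18.1 tags, -1.10, also named after its values were seen). That fall did not pass without vehicle library 1 or 2. Among 28 immediate-early and AP-1 promoters, Ier3 (1.48) and the zinc finger factor gene Egr3 (1.06) were raised and 0 lowered as deposited, where 8.53% of all peaks and 1.13% of the members were raised. With median-ratio scaling 5 were raised, Maff, Nr4a1 and Nr4a3 being the others, and edgeR with TMM called 7 raised and 0 lowered. At an unadjusted p under 0.05 limma had 4 up and 0 down. The promoters of Fos (92.1 ± 26.2 tags in IL-33 and 101.2 ± 16.1 in vehicle libraries) and Jun (129 ± 36.2 and 154 ± 15.5 tags) were not called. Egr3 did not pass without IL-33 library 1 or vehicle library 2, 3 or 4.

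Of 25 promoters of pattern recognition receptor genes 4 were raised and 0 lowered as deposited, and 6 were raised and 2 lowered (Aim2 and Ddx58, sensors of cytosolic nucleic acid) with median-ratio scaling. At an unadjusted p under 0.05 limma had 4 up and 0 down, and edgeR called 4 raised and 0 lowered with total tags and 7 and 4 with TMM. Msr1, a scavenger receptor gene, had 56.1, 21.6, 27.5 and 57.1 tags in IL-33 and 12.2, 15.9, 7.41 and 11.02 tags in vehicle libraries (1.63, limma, adjusted p = 3.88e-05), without overlap. Cd14, a co-receptor for lipopolysaccharide, averaged 74.7 ± 25.4 tags with IL-33 and 32.9 ± 12.6 with vehicle (1.16), and its groups overlapped. The lipoprotein receptor genes Tlr1 (24.4 ± 4.90 and 11.4 ± 1.88 tags, 1.02) and Tlr2 (0.98) were near the threshold. Tlr2 had 128, 80.3, 105.6 and 142.5 tags in IL-33 and 55.0, 64.3, 43.3 and 63.3 tags in vehicle libraries (limma, adjusted p = 0.0304). Its groups did not overlap, and it passed in 1 of the 8 leave-one-out fits, the one without IL-33 library 2 (adjusted p 0.00128 to 0.129 over the 8 limma fits). Cd14 did not pass without vehicle library 3 or 4, and this Tlr1 peak without vehicle library 1, 3 or 4 or IL-33 library 3 or 4. A second Tlr1 peak 808 bp upstream was raised more clearly (30.03 ± 13.8 and 11.6 ± 1.20 tags, 1.20). It passed in all 8 leave-one-out fits and is named after its values were seen.

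As deposited, homeostatic microglia genes were the one list with more lowered than raised promoters, and with median-ratio scaling several other lists had more lowered than raised ones as well. Of 25 tested, 4 were lowered and 1 raised (5 and 1 with median-ratio scaling, 6 and 3 in edgeR with TMM), with a median log2 change of -0.27, close to the -0.22 of all members. At an unadjusted p under 0.05 limma had 1 up and 5 down. The raised one was Slco2b1, read through its peak 39 bp from a start (1.71), while another of its peaks was among the 12 largest falls (-1.80). Over all 38 shared promoter peaks of these genes 7 were lowered and 1 raised. Beside Crybb1 and Siglech the lowered ones among the 25 were Gpr34, a lysophosphatidylserine receptor gene (7.32 ± 3.02 tags in IL-33 and 22.4 ± 7.23 in vehicle libraries, -1.47), and Sall3, a zinc finger factor gene (47.8 ± 23.1 and 86.2 ± 17.2 tags, -0.97). Sall3 did not pass without IL-33 library 2 or 3 or vehicle library 1, 2 or 4. P2ry12, a purinergic receptor gene, had 54.6, 15.7, 32.6 and 51.5 tags in IL-33 and 33.8, 34.4, 19.2 and 29.7 tags in vehicle libraries and was not called (0.28, limma, adjusted p = 0.706). Cx3cr1, the fractalkine receptor gene (-0.26), and Tmem119, a surface marker of microglia (-0.27), were not called on either scaling. Of 26 promoters of macrophage transcription factors limma called 0 as deposited (0 up and 2 down at an unadjusted p under 0.05), and edgeR called 3 raised and 7 lowered with TMM and 0 and 1 with total tags. Spi1, which encodes PU.1, had 115.5 ± 29.7 tags in IL-33 and 99.5 ± 13.7 in vehicle libraries and was not called on either scaling (0.18). Lyl1, a basic helix-loop-helix factor gene, was the nearest (51.3 ± 14.3 and 95.1 ± 9.49 tags, -0.91, limma, adjusted p = 0.0501), and it passed with median-ratio scaling, as did Runx1, Fli1, Smad3 and Etv6 downward and Cebpb and Nfe2l1 upward.

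Of 24 promoters of interferon-stimulated genes Gbp2 was the one raised as deposited (32.4 ± 11.4 tags in IL-33 and 14.1 ± 1.70 in vehicle libraries, 1.09), and it did not pass without vehicle library 3 or IL-33 library 4. None was lowered as deposited in limma, which had 2 up and 1 down at an unadjusted p under 0.05. With median-ratio scaling 3 were raised (Gbp2, Isg15 and Zbp1) and 3 lowered (Eif2ak2, Ifit3 and Mx1), and edgeR with TMM called 4 raised and 5 lowered. Antigen presentation had 1 raised of 16 (2 with median-ratio scaling and 2 in edgeR with TMM), Cd74, the invariant chain of MHC class II (41.1 ± 8.90 and 15.1 ± 1.33 tags, 1.36), and lysosome and phagocytosis genes 1 of 27, the integrin gene Itgax (22.0 ± 6.51 and 7.71 ± 1.83 tags, 1.36). Of the 27, 4 were raised (C3ar1, Cd44, Fcgr3 and Itgax) and 2 lowered (the cathepsin genes Ctsc and Ctsd) with median-ratio scaling, and 5 raised and 3 lowered in edgeR with TMM. Housekeeping genes had no call as deposited at the promoter nearest to each start. Among 34 ribosomal protein, 25 respiratory chain, 26 proteasome, 33 RNA polymerase II and Mediator, 29 cell cycle and 21 glycolysis promoters, 0 were raised and 0 lowered as deposited in limma, with medians of -0.26, -0.23, -0.23, -0.21, -0.21 and -0.15. At an unadjusted p under 0.05 limma had 2 up and 2 down among these 168, and edgeR called 4 raised and 13 lowered with TMM and 0 with total tags. With median-ratio scaling 2 were raised, the cyclin gene Ccnd2 and the cell cycle inhibitor gene Cdkn1a, and the lowered ones included Cdkn2c, Hk3 and Ldhb. Further from its start, 863 bp upstream, Ldhb had a second promoter peak that was raised as deposited (23.02 ± 10.1 tags in IL-33 and 8.55 ± 3.02 in vehicle libraries, 1.25, limma, adjusted p = 0.00299, named after its values were seen), and its groups overlapped.

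**Figure D4:**
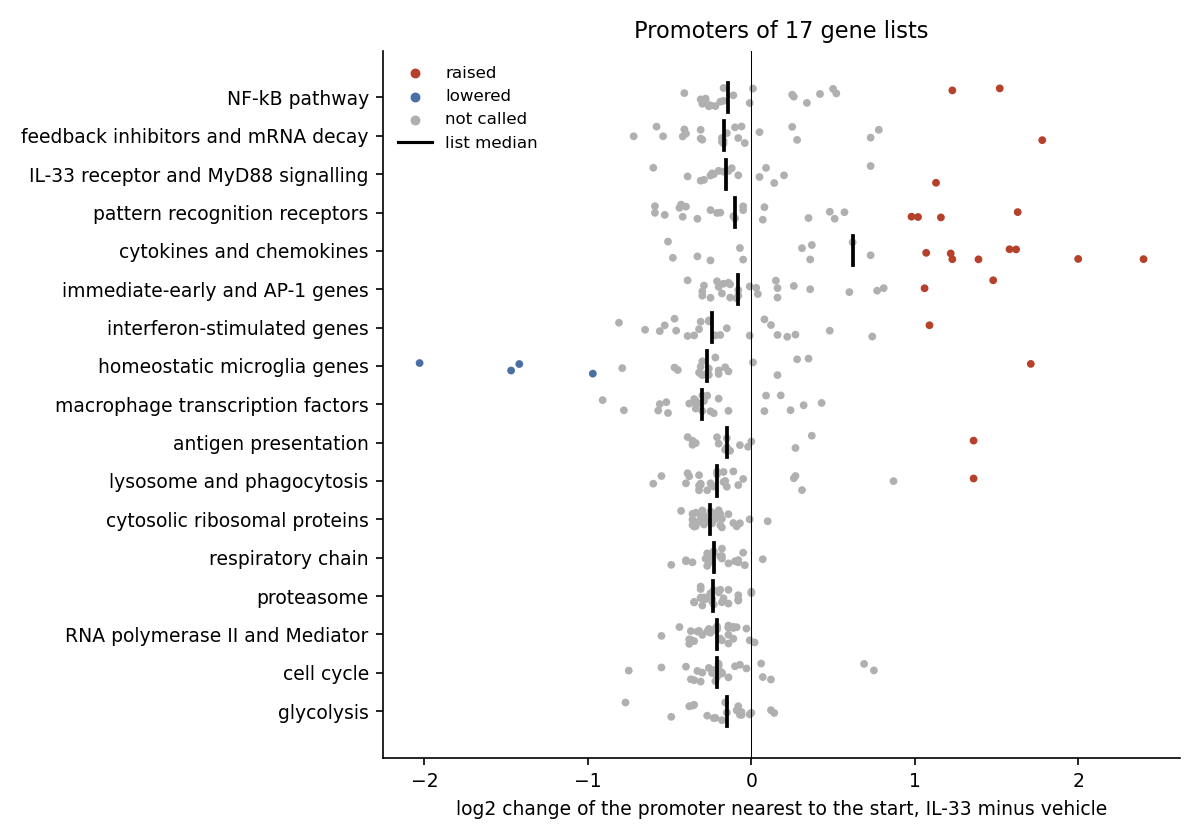
Log2 change, IL-33 minus vehicle, of the promoter nearest to the start of each gene in 17 lists, values as deposited. Points are promoters (red raised, blue lowered, grey not called), with random vertical scatter, and black bars are list medians. Cytokine and chemokine promoters have a median of 0.62, and the medians of the other lists lie between -0.30 and -0.08.

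Markers of the sorted cell type were open and those of other types mostly were not among these promoters. Of 8 microglia markers 7 had a shared promoter, Csf1r being the exception, and their tags summed to 213 to 484 per IL-33 library and 388 to 570 per vehicle library. Siglech and Gpr34 were lowered. Of 8 lymphocyte markers none had a shared promoter. Other types had 1 or 2, of 6 to 8 markers each, which were Mrc1 and F13a1 (border macrophages), Csf3r (monocytes and neutrophils), Aldh1l1 and Gja1 (astrocytes), Mbp and Pdgfra (oligodendrocyte lineage), Slc17a7 (neurons) and Pecam1 and Pdgfrb (vessels). Their sums were 16.9 to 41.5 tags in IL-33 and 24.97 to 46.1 in vehicle libraries for border macrophages and 39.4 to 82.0 and 53.0 to 87.5 for Csf3r. For astrocytes they were 6.96 to 36.0 tags with IL-33 and 16.8 to 30.5 with vehicle, for the oligodendrocyte lineage 17.7 to 37.7 and 22.8 to 32.4, for neurons 5.22 to 16.7 and 8.65 to 12.8, and for vessels 10.4 to 23.3 and 19.7 to 36.1. None of these promoters was called, and ranges overlapped in each type. In bulk libraries a change in which cells were sorted and a change within cells cannot be told apart.

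Genes with more than 1 shared promoter peak were also read peak by peak. There were 2038 such genes, and the range of log2 change among the peaks of a gene had a median of 0.24, was over 1 in 130 and over 2 in 14. The SD of the log2 change over all members was 0.32, and ranges between peaks of different genes were not computed. A raised peak occurred in 78 of these genes and a lowered peak in 53. A raised peak stood beside one that was not called in 71 genes, and every peak was raised in 4. A lowered peak stood beside one not called in 46 genes, and every peak was lowered in 4. In 3 genes, and in 25 with median-ratio scaling, 1 peak was raised and another lowered. They are named because of that, after their values were seen.

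Slco2b1, a transporter of organic anions and steroid conjugates, had the widest range, 3.51 on the log2 scale. Its peak 39 bp upstream of one start (chromosome 7, 99711212 to 99711546) had 47.8, 31.7, 35.4 and 55.2 tags in IL-33 and 13.2, 16.5, 9.92 and 9.21 tags in vehicle libraries (log2 change 1.71, limma, adjusted p = 1.38e-05). Its peak 46 bp upstream of another start (99706760 to 99707016) had 18.2, 3.65, 15.3 and 15.6 tags in IL-33 and 50.8, 49.1, 31.8 and 42.3 tags in vehicle libraries (-1.80, limma, adjusted p = 3.89e-06). Neither peak overlapped between groups, and the order of the starts was reversed, the first being the more open with IL-33 and the second with vehicle. A further peak (99707330 to 99707573) was lowered as well (-1.08) and did not pass without vehicle library 1 or 2 or IL-33 library 3. The RefSeq window of the raised start held ETS, PU.1-type and AP-1 matches with a CpG ratio of 0.21, and that of the lowered start held none of the searched motifs, with 0.10.

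Parvg, which encodes an adaptor between integrins and actin in blood cells, rose to 102 ± 22.7 tags in IL-33 libraries, against 33.0 ± 4.05 in vehicle libraries, at one peak (chromosome 15, 84325639 to 84326048, 1.58), and fell to 18.4 ± 5.10 tags with IL-33, against 37.6 ± 7.84 with vehicle, at another (84324594 to 84324870, -1.0). The fall did not pass without IL-33 library 3 or vehicle library 1, 2 or 4. At Nr1d1, the gene of the clock repressor REV-ERB-alpha, a peak 602 bp upstream had 53.9 ± 10.3 tags in IL-33 and 21.5 ± 8.05 in vehicle libraries (1.33), and one 85 bp upstream had 23.5 ± 7.47 and 55.7 ± 11.3 tags (-1.24). Both Nr1d1 calls held in all 8 leave-one-out fits.

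Promoters and the other peaks of their genes were called in the same direction more often than in opposite ones. Among 1906 genes with a raised and no lowered peak outside promoters, 65 (3.41%) had a raised and 5 (0.262%) a lowered shared promoter. Where at least 3 such peaks were raised the raised share was 6.63% of 407 genes. Among 922 genes with a lowered and no raised peak outside promoters, 51 (5.53%) had a lowered and 3 (0.325%) a raised promoter, and with at least 3 lowered peaks the lowered share was 11.97% of 142 genes. Among 5189 genes whose other peaks were not called, the shares were 0.964% raised and 0.848% lowered. Counting genes with calls in both directions too, 79 genes had a raised promoter and a raised peak elsewhere, 55.6% of the genes with a raised promoter and 3.20% of those with a raised peak elsewhere. For falls there were also 79 genes, 56.0% and 5.31%. Of all 10669 genes with a tested shared promoter, 2472 had a raised and 1488 a lowered peak elsewhere. A raised promoter was found in 1.33% of these genes and a lowered one in 1.32%. Genes with more peaks have more chances of a call, and the peaks come from the same libraries.

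Raised promoters were poor in CpG and in some motifs of housekeeping promoters. A RefSeq window of the gene overlapped 8750 members (67.0%), among them 71 of the raised and 82 of the lowered. The ratio of observed to expected CpG had a median of 0.33 in raised, 0.49 in lowered and 0.79 in promoters not called, against 0.38 over all 32851 windows of the table. It rose with vehicle level, with medians of 0.61, 0.73, 0.79, 0.82 and 0.84 over bins 1 to 5. Within bins 1 and 2 the medians were still 0.30 in 66 raised, 0.53 in 45 lowered and 0.70 in 2645 promoters not called. GC boxes (GGGCGG) occurred in 35.2% of raised, 53.7% of lowered and 70.4% of windows not called, against 35.7% of all windows. The ETS motif CCGGAAG occurred in 8.45%, 6.10% and 19.5%, against 8.86%. CCAAT occurred in 31.0%, 25.6% and 39.5%, against 37.4%, and reached 57.4% in bin 5. The TATA box (TATAAA) was the reverse, with 12.7%, 12.2% and 6.13%, against 13.6%. Within bins 1 and 2 GC boxes occurred in 33.3% of raised, 60.0% of lowered and 59.7% of windows not called. There the ETS motif occurred in 9.09%, 2.22% and 13.9%, CCAAT in 30.3%, 22.2% and 29.5%, and the TATA box in 13.6%, 8.89% and 8.36%.

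Motifs of inflammatory response were more frequent in raised than in lowered or uncalled promoters. The NF-kB consensus matched in 21 of 71 raised windows (29.6%), 7 of 82 lowered (8.54%) and 10.5% of those not called, against 8.46% of all windows. Within bins 1 and 2 it matched in 28.8% of raised, 11.1% of lowered and 11.6% of windows not called. Among the raised promoters named by rule that had a window, Tank, Cxcl2, Ebi3, Bcl3, Ier3, Tnfaip2, Tlr2 and Gbp2 held a match. Ccl22, Nadk, Birc3, Il1rn, Il18rap, Tlr1, Itgax and the raised Slco2b1 start held none. The AP-1 motif TGANTCA matched in 16.9% of raised, 3.66% of lowered and 4.16% of windows not called, against 7.81% of all windows. The C/EBP motif TTGCNNAA matched in 21.1%, 12.2% and 7.53%, against 10.8%. The PU.1-type motif GAGGAAG matched in 22.5%, 17.1% and 13.7%, against 13.6%. With median-ratio scaling, 24.9% of 233 raised and 8.79% of 512 lowered windows held the NF-kB match and 16.7% and 2.93% the AP-1 match. Both strands were searched. Motifs can share bases, and a match is a description of letters and not a bound site. Nfkbia, P2ry12, Nr4a1 and the proteasome genes Psma6 and Psmd13, not called as deposited, also held an NF-kB match.

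**Figure D5:**
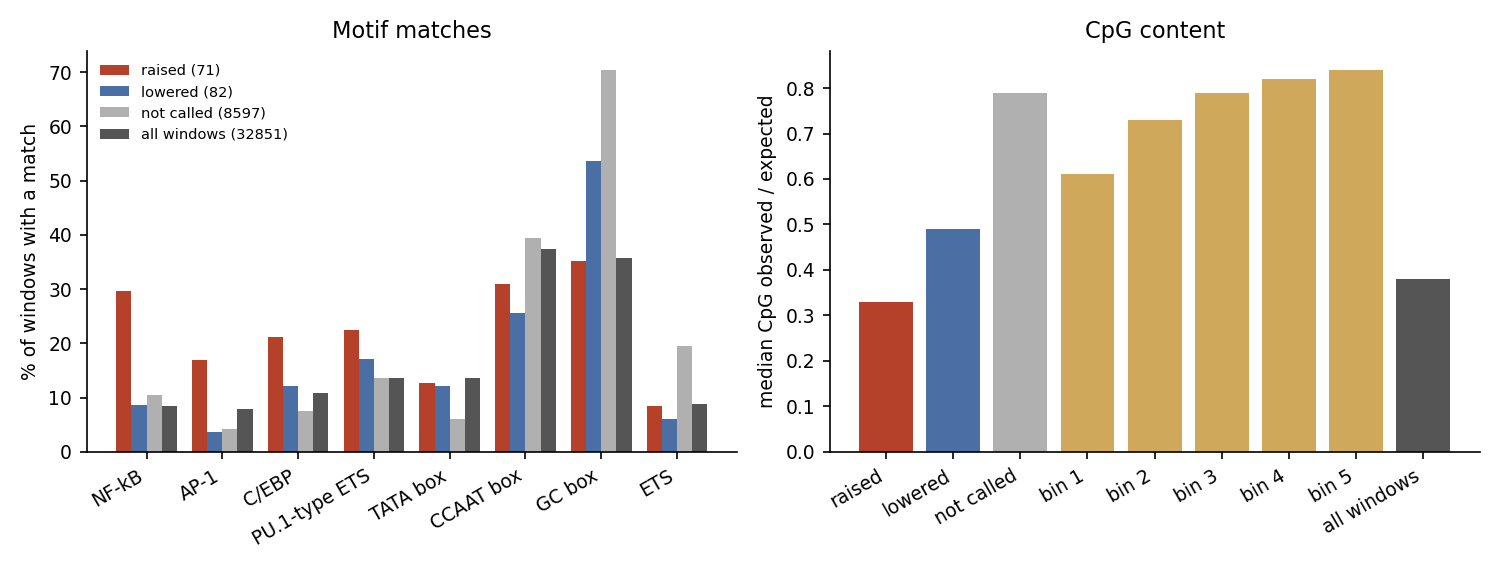
Left, percent of RefSeq promoter windows with a motif match, for members that were raised, lowered or not called and for all windows of the table (number of windows in the legend). Right, median ratio of observed to expected CpG in the same sets and in the 5 bins of vehicle level, 1 being the weakest. Raised promoters have the lowest CpG ratio of the sets drawn, 0.33, and the most frequent NF-kB match, 29.6%.

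As deposited, motifs of housekeeping regulators were less frequent in raised and in lowered promoters than in those not called. The NRF1 motif GCATGCGC and the YY1 motif AANATGGCG each matched in 0 of 71 raised windows. They matched in 1.22% and 0% of lowered windows and in 5.91% and 5.72% of windows not called, against 2.71% and 2.38% of all windows. The cyclic AMP response motif TGACGTCA matched in 1.41% of raised (1 window), 0% of lowered and 3.56% of windows not called, against 1.79% of all windows. Other motifs did not share this order. The E-box CACGTG matched in 9.86%, 10.98% and 10.83%, against 7.15%. The interferon response motif matched in 5.63%, 3.66% and 2.91%, against 3.44%. Some peaks were overlapped by RefSeq windows of different genes on both strands. They made up 5.63% of raised and 4.88% of lowered members with a window, against 13.5% of those not called. Within bins 1 and 2 these shares were 6.06%, 2.22% and 8.32%. In the same bins NRF1 and YY1 each matched in 0 of 66 raised and 0 of 45 lowered windows. Among the 2645 not called they matched in 3.59% and 4.08%. Both motifs were rarer in weak promoters, with 1.92% and 1.22% in bin 1 and 7.24% and 6.87% in bin 3, and the part of level was not tested. With median-ratio scaling the NRF1, YY1 and cyclic AMP response motifs matched in 0.86%, 0.43% and 3.4% of 233 raised windows. In 512 lowered windows they matched in 3.1%, 3.5% and 1.2%.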

How the data were processed

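The data are ATAC-seq tags in 104981 peaks of 8 libraries, 4 from mice given IL-33 and 4 from mice given vehicle, with 1 mouse behind each library, per the labels. The deposited values are a signal, tags per peak counted by HOMER at up to 3 per position and scaled by the authors to an effective total of 10000000, per the file headers. Header totals were 35842688 to 43857673 tags. All values were whole multiples of 1 read (0.114 to 0.139 tags) within 0.006 tags, so reads could be recovered for edgeR. The authors' deposited peak score was used only to describe peaks. Peaks and annotation are on mm10, per the file headers. Bowtie2, HOMER and DESeq2 are listed as tools, per the submitters' processing notes. Read filtering was not given in the sources used here. Columns name the group and a number but not the mouse, so sex was not used.

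Members were peaks with a promoter annotation, a protein-coding gene type and both lists in the deposited table. The members and gene lists were chosen with earlier results of these data known. limma 3.58.1 (R 4.3.3; no trend, two-sided, Benjamini-Hochberg over 94480 peaks) was run on log2(tags + 1.155) after leaving out the lowest 10% of means (10501 peaks). Fold changes on this scale come out too small for weak peaks. Named promoters were the 12 largest rises and falls with groups apart, the 5 strongest, the extremes of each of 5 level bins, up to 3 genes with the smallest p per list, and a few fixed genes. A gene with several peaks is represented by the one nearest to its start. The fit was tested on simulated data. Sequences are RefSeq windows of GRCm38.p6, matched by Entrez gene ID and overlap (8750 of 13052 members), none of them for the 344 members on chromosomes without windows. Alternatives were scaling, pseudocount, filter, trend, edgeR 4.0.16, the column number as a block and leaving out each library. Wilson intervals cover counting error only.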

Additional observations from a re-analysis of the deposited data

Results flagged for a closer look

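At 8 promoters vehicle library 3 stood apart below the other 3 vehicle libraries, by a gap, relative to the group's range, above Dixon's 95% critical value. It had 29.6 tags at Klhl38 (others 46.5 to 49.4), 29.8 at Pmp22 (39.6 to 40.7), 25.8 at Rtn4rl1 (43.2 to 46.8), 279.9 at Fem1c (329 to 333), 76.4 at Birc3 (92.4 to 94.5), 18.7 at Bcl3 (28.01 to 29.1), 54.8 at Dusp2 (74.6 to 78.4) and 45.9 at Rplp2 (71.5 to 76.6). Of 182 groups of 4 examined, 8 stood apart in this way, and chance alone gives about 1 in 20. This library also had the lowest share of tags in peaks of its group, 20.8%, and its part in the flags was not tested. At Klhl38, Pmp22, Rtn4rl1, Birc3 and Bcl3 the groups did not overlap with this library included, and each of these promoters passed in limma without it.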

How the results depend on the processing

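Scaling moved the counts most. Raised and lowered promoters numbered 148 and 148 as deposited, 484 and 806 with median-ratio scaling, 473 and 729 with quantile normalization, 515 and 763 with equal column sums, and 661 and 1512 in edgeR with TMM on recovered reads. A limma trend with median-ratio scaling, added after seeing the data, gave 605 and 2263. Leaving out 1 library gave 100 to 378 raised and 59 to 301 lowered as deposited, and 394 to 479 raised and 461 to 702 lowered with median-ratio scaling (added after seeing the data). With 1 peak per gene 84 were raised, and among promoters on either list 326. Other pseudocounts and filters, a trend and edgeR with total tags kept both counts within 1.5 times. The median change ran from -0.34 to 0.0 without 1 library. The share of all tags, IL-33 minus vehicle, was -1.01 percentage points and 0.0563 without IL-33 library 2. The share of windows with a CpG ratio over 0.6 was 77.8%, and 78.7% with 1 peak per gene. Of 60 called promoters checked, which are the named ones, those of listed genes and those of the 3 genes with opposite calls, 14 lost the call in at least 1 of the 8 fits that each left out 1 library. Of the 42 named by rule 6 did, and Tlr2 among these also with a smaller pseudocount. None of the 42 changed sign in any alternative. Columns of both groups are numbered 1 to 4, and the labels do not say that these numbers pair mice. Deviations from the group means correlated at -0.06 to -0.02 between libraries of the same number, so the numbers were not taken as pairs. With the number as a block, added after seeing the data, 140 promoters were raised and 131 lowered as deposited, where no named promoter changed its call, and 406 and 474 with median-ratio scaling. Totals differed little between libraries, while the share of tags in peaks ran from 14.2% to 31.3% in IL-33 and from 20.8% to 27.9% in vehicle libraries.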
